A study of Rattus norvegicus with 6 samples.

Results

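Kinesins are motor proteins that use ATP to move along microtubules or to take them apart. The genes described here are all rows of the deposited rat gene table whose symbol begins with Kif or Kifc and a number, 38 of 21648 genes. They divide into 10 kinesins of mitosis and cytokinesis, 27 kinesins known mainly for transport, cilia or microtubule dynamics, and Kif1bp, which encodes a kinesin-binding protein without a motor and is kept apart below. The mitotic list had 12 names, of which Kif11 and Kif15 were not analysed here. Nor were Kif1b and Kifc2 among the transport kinesins.

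RNA was sequenced from wild-type neonatal rat ventricular myocytes, heart muscle cells taken from pups on postnatal day 3 and kept in primary culture. One group of 3 libraries came from cultures given 10 µM of compound 915, named in the series' design as an ERR agonist (ERRs, the estrogen-related receptors, are orphan nuclear receptors of energy metabolism), for 72 h. The other 3 libraries came from cultures given the solvent DMSO for the same 72 h. Both groups shared what limits these cultures as a model: fibroblasts were reduced by 90 min of pre-plating, the plating medium held serum and 100 µM bromodeoxyuridine, a thymidine analog that limits the growth of dividing cells, and medium with insulin, transferrin and selenium followed. Libraries of a group are labelled as biological replicates with no mention of separate isolations, and every p-value below therefore reflects only how these 6 libraries vary, in part perhaps technically. With repeated gene rows dropped, the count table summed to 30639244 to 38078137 reads per library with 915 and to 36799845 to 40010826 with DMSO.

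During mitosis, plus-end-directed kinesins push spindle poles apart, move chromosome arms and bundle the central spindle, while kinesin-13 motors remove tubulin from microtubule ends. Genes for these motors are switched on late in the cell cycle. Their control runs through promoter elements bound by the DREAM and MuvB complexes and by NF-Y. Transport kinesins work in resting cells too. In heart muscle, kinesin-1 is known for carrying mitochondria, and other members carry endosomes, vesicles and ciliary proteins.

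With 915, all 10 measured mitotic kinesins fell, by 2.16-fold (Kif22) to 4.16-fold (Kif23), and in each of them the 915 libraries lay below every DMSO library. Of the 25 other kinesins that could be tested, 8 fell, 1 rose and 16 did not pass the test. Among these others, 2 fell by at least 2-fold, Kif26a and Kif27, of which Kif27 was under 2-fold (log2 fold change -0.92) without 915 library 3. With library totals alone in place of TMM scaling, the split of the others was 0 higher and 10 lower, Kifc3 and Kif1c being added. Kinesin-1 heavy chain genes, including Kif5b, did not pass. In bulk RNA, fewer dividing cells and less of each RNA per dividing cell cannot be told apart.

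These calls are set against a broad response. In the same edgeR test (quasi-likelihood, Benjamini-Hochberg adjusted p under 0.05) 49.8% of 14253 genes were called (25.5% of the genes lower and 24.3% higher with 915). Genes both called and at least 2-fold lower made up 6.9% of those tested, and all 10 mitotic kinesins met that condition. Genes called and at least 2-fold higher made up 1.77%, and 0 kinesins did so. The median log2 fold change was -1.76 for the mitotic kinesins, against -0.13 for the 25 other kinesins and -0.01 for all genes tested. The groups did not overlap in 10 of 10 mitotic kinesins and 12 of the 25 others, always with 915 lower. Over all genes tested, they did not overlap in 56.7%, and in 32.8% with 915 lower.

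**Figure D1:**
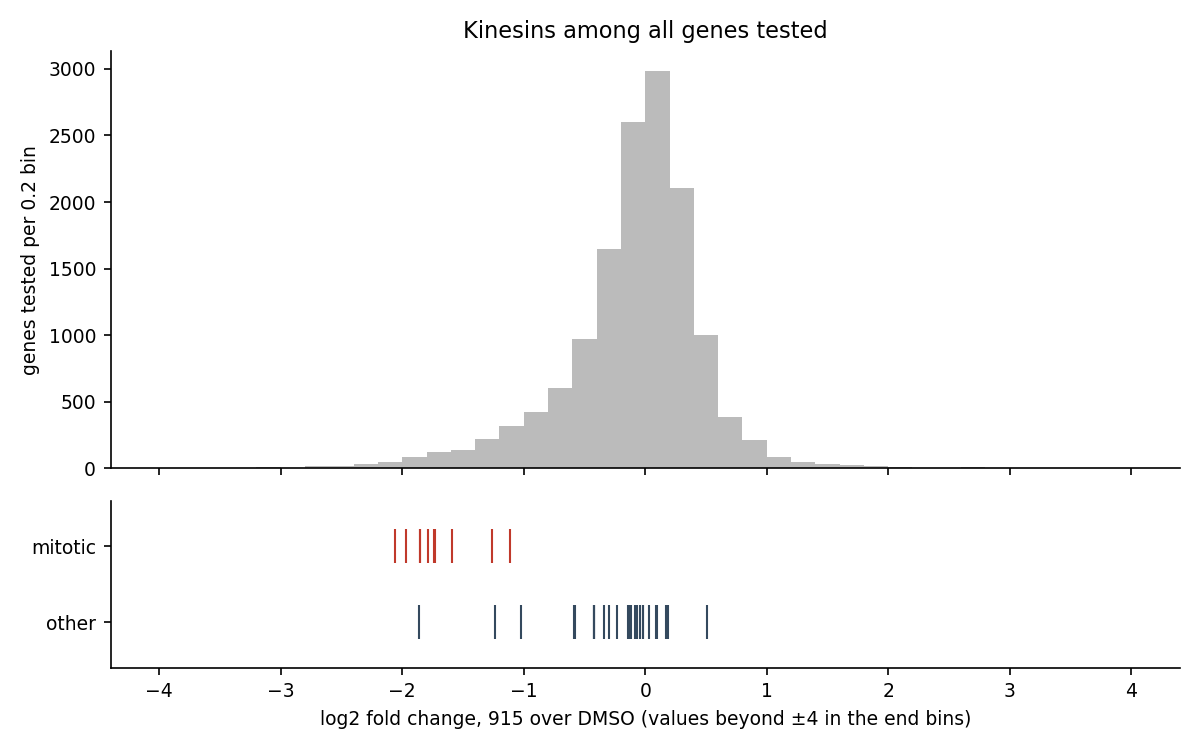
The upper panel counts all 14253 genes tested by log2 fold change (915 over DMSO), in bins 0.2 wide, and the lower panel marks each tested kinesin by 1 line. The 10 mitotic kinesins lie between -2.06 and -1.11, and most of the other kinesins lie near the centre of the distribution.

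The promoters of several mitotic kinesins carry the letters of the elements named above, and 6 windows are shown here as examples. Any part of these letters in the changes of RNA was not tested. They come from RefSeq (GRCr8), cover 250 bases before to 50 bases after the annotated start, and read 5′ to 3′ along the gene. Capitals mark the cell cycle homology region (CHR) letters TTTGAA and the NF-Y letters CCAAT, searched on both strands. On the opposite strand these read TTCAAA and ATTGG, and no match overlapped another in the windows shown.
Kif4a, chrX:69761633-69761932, + strand: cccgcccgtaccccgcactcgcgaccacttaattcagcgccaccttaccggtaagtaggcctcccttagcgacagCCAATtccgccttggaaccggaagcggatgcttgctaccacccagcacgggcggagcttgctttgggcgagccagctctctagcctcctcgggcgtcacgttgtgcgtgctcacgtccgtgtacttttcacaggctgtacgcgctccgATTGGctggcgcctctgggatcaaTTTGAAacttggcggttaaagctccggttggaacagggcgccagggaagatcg
Kif22, chr1:191080829-191081128, - strand: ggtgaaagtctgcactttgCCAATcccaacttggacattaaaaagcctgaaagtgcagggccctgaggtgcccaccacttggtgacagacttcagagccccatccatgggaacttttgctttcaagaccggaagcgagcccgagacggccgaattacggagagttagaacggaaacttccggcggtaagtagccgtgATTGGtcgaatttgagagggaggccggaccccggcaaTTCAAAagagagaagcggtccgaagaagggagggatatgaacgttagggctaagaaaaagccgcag
Kifc1, chr20:5000679-5000978, + strand: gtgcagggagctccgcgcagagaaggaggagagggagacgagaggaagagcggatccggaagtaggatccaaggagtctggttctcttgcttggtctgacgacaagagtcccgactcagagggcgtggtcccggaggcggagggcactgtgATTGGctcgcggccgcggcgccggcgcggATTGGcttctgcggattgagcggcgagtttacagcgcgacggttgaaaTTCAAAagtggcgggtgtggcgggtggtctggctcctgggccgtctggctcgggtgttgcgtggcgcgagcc
Kif20b, chr1:241840766-241841065, + strand: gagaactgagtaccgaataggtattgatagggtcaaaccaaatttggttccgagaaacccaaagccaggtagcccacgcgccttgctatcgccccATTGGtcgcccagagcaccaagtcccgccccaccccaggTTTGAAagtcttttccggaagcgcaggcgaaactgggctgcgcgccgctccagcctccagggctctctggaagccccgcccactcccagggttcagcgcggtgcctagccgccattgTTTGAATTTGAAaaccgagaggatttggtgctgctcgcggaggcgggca
Kif2c, chr5:135899163-135899462, - strand: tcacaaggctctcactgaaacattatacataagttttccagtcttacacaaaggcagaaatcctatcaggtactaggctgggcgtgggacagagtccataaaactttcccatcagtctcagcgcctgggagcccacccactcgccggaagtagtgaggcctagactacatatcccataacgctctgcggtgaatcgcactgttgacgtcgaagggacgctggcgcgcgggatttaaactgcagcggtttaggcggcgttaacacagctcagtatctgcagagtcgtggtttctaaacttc
Kif5b, chr17:56185136-56185435, + strand: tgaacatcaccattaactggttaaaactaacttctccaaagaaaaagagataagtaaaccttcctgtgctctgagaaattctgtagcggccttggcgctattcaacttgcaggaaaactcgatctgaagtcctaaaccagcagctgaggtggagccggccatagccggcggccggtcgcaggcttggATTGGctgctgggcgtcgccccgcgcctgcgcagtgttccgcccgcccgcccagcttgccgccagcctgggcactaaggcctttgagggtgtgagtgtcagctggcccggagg
In Kif4a, the CHR letters began at position -3 from the start and the nearer CCAAT letters at -27. Kif22 held them at -16 and -53, and Kifc1 at -22 with CCAAT letters at -70 and -99. Kif20b held TTTGAA letters at -116, 2 and 8, the last pair side by side just after the start, and CCAAT letters at -155. Kif2c, whose RNA also fell, held neither motif, and Kif5b, whose RNA did not pass the test, held CCAAT letters alone, at -63.

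Among the kinesins, 9 of the 10 mitotic genes and 19 of the 27 others had a window in this table. The CHR letters were present in 5 of 9 mitotic windows (55.6%) and 2 of 19 others (10.5%), against 11.8% of 10169 windows of genes tested and 18.3% of all 33469 windows. CCAAT letters were found in 6 of 9 mitotic windows (66.7%) and 5 of 19 others (26.3%), against 37.1% of the genes tested and 37.5% of all windows. Both motifs together were held by the mitotic genes Kif4a, Kif20b, Kif22, Kif23 and Kifc1, by 1 of the 19 others (Kif26b), by 4.65% of the genes tested and by 7.41% of all windows. Kif26b did not pass the test for a change, and the mitotic genes Kif18a, Kif18b and Kif2c, which fell, held neither motif. An ERR response element, spelled TNAAGGTCA, was found in 0 of the 28 kinesin windows, against 0.669% of the genes tested and 1.2% of all windows. A match of letters is a description and not a bound site, and an absence says only that these letters are not in the window.

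Motors of the central spindle and of cytokinesis fell by 3.32-fold to 4.16-fold. Kif23 (ENSRNOG00000014080) encodes MKLP1, the motor subunit of centralspindlin, the complex that bundles midzone microtubules and positions the cleavage furrow. It was measured at 7.35, 8.19 and 7.38 CPM (the deposited counts scaled to each library's total) in 915 libraries 1 to 3, against 34.9, 30.2 and 33.3 CPM in DMSO libraries 1 to 3. All 915 values were below 9 CPM and all DMSO values above 30 CPM. The log2 fold change was -2.06 ± 0.0833 (SE, edgeR adjusted p = 1.70e-10), the lowest of the tested kinesins. Kif20a (ENSRNOG00000024428) encodes MKLP2, which brings the chromosomal passenger complex to the midzone. It had 16.1, 15.2 and 16.2 CPM with 915, against 55.9, 55.7 and 52.8 CPM with DMSO, a 3.35-fold decrease (-1.74 ± 0.0633, edgeR adjusted p = 5.89e-11). Replicates of both groups were close together, and this was the smallest adjusted p among the kinesins.

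Kif20b (ENSRNOG00000018929), a relative of Kif20a that acts late in cytokinesis, had 3.61, 3.91 and 3.96 CPM in the 915 libraries, against 15.5, 13.8 and 17.1 CPM in the DMSO libraries. This was a 3.9-fold decrease (-1.97 ± 0.112, edgeR adjusted p = 4.54e-09). Kif4a (ENSRNOG00000038035), a chromosome-bound motor that also limits the length of midzone bundles together with Prc1, had 3.9, 4.04 and 4.06 CPM with 915, against 14.8, 13.8 and 16.1 CPM with DMSO. It fell 3.6-fold (-1.85 ± 0.105, edgeR adjusted p = 4.21e-09), and the 915 libraries differed among themselves by less than the DMSO libraries did. Kif14 (ENSRNOG00000037211), which binds citron kinase and Prc1 at the midbody, had low counts, with 1.44, 2.02 and 1.21 CPM in the 915 libraries and 5.82, 4.7 and 5.34 CPM in the DMSO libraries. Its 3.32-fold decrease (-1.73 ± 0.193, edgeR adjusted p = 4.31e-06) rests on 49 to 250 counts per library, and the groups did not overlap.

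The motors that move and align chromosomes fell as well, over a wider range. Kif22 (ENSRNOG00000020281), a chromokinesin that pushes chromosome arms away from the poles, had 5.89, 5.69 and 5.76 CPM with 915, against 12.9, 13.1 and 12.8 CPM with DMSO. Its spread was narrow in both groups, and its change of -1.11 ± 0.0954 (edgeR adjusted p = 3.14e-07) was the smallest of the mitotic kinesins. Kif18b (ENSRNOG00000021713), a kinesin-8 that shortens astral microtubules, had 8.82, 7.58 and 8.61 CPM with 915, against 20.3, 21.8 and 19.8 CPM with DMSO (-1.26 ± 0.0902, edgeR adjusted p = 4.72e-08). The other kinesin-8 of mitosis, Kif18a (ENSRNOG00000005037), damps the oscillation of chromosomes at the spindle equator. It was counted at 1.13, 1.68 and 0.886 CPM in the 915 libraries and 4.1, 3.66 and 5.82 CPM in the DMSO libraries, a change of -1.85 ± 0.247 (edgeR adjusted p = 2.56e-05). Kif18a had the largest SE of the mitotic kinesins, with 36 to 230 counts per library. Whether Kif18a fell more than Kif18b was not tested.

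Spindle-shaping motors outside these classes followed the same direction. Kif2c (ENSRNOG00000019100) encodes MCAK, the depolymerase that corrects faulty kinetochore attachments, and had 5.42, 4.74 and 4.85 CPM with 915, against 17.5, 19.1 and 17 CPM with DMSO (-1.79 ± 0.1, edgeR adjusted p = 3.89e-09). Kifc1 (ENSRNOG00000000479), the minus-end-directed kinesin-14 that focuses spindle poles, had 9.99, 9.72 and 9.37 CPM with 915, against 33.3, 30.7 and 26.8 CPM with DMSO (-1.59 ± 0.0882, edgeR adjusted p = 3.30e-09). The lowest DMSO library of each gene was more than 2-fold above the highest 915 library.

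**Figure D2:**
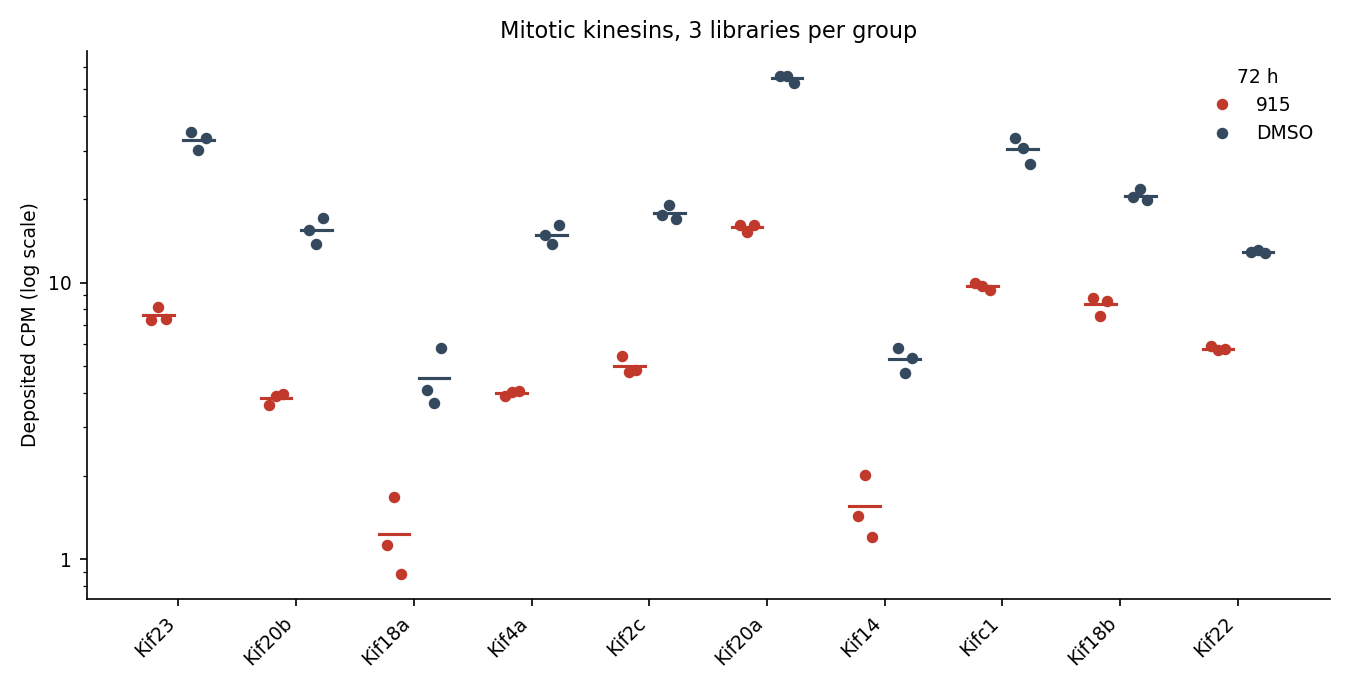
Deposited CPM (log axis) of the 10 mitotic kinesins in the 3 libraries with 915 (left of each pair) and the 3 with DMSO (right), ordered by fold change, with bars at the group means. No 915 library reaches any DMSO library of the same gene, and Kif18a has the largest SE of its fold change, 0.247.

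Summed over the 10 mitotic kinesins, the level was 62.9 ± 0.676 CPM with 915 and 210 ± 4.76 CPM with DMSO (SD, n = 3 each). Of all reads assigned to the 37 kinesin genes, the mitotic genes took 4.9% ± 0.128 with 915 and 13.4% ± 0.551 with DMSO (SD, n = 3 each). This share counts long transcripts more than short ones, so it describes a change between groups and not a proportion of motor molecules.

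Partners of these motors moved with them. In a list of 20 spindle and midbody genes, 19 were in the table and 18 were tested. Against 25.5% of all genes tested called lower, 18 of 18 fell. Their log2 fold changes ran between -2.13 and -0.56 around a median of -1.58. The RhoA-binding scaffold Anln and the spindle assembly factor Tpx2 were 3.24-fold and 2.74-fold lower, and Ckap2, a microtubule protein of dividing cells, was 2.59-fold lower. Ect2, the exchange factor that centralspindlin brings to the equator, had 5.3 ± 0.0941 CPM with 915 and 24.1 ± 3.6 CPM with DMSO, and was 4.39-fold lower (edgeR adjusted p = 2.09e-09). Prc1, the bundling protein that recruits Kif4a, had 20.3 ± 1.41 CPM with 915 and 83.2 ± 3.23 CPM with DMSO, and was 3.95-fold lower (edgeR adjusted p = 1.94e-11). Cenpe, a kinesin-7 whose symbol falls outside the naming rule, was 3.5-fold lower. The member that could not be tested was Racgap1, whose row had at most 1 count in any library. The reason for so few counts was not tested.

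Regulators known to act on late cell cycle promoters were mostly lower where called, with 10 of 20 lower and 2 higher. Over all genes tested, 25.5% were lower and 24.3% higher. Foxm1 and Mybl2, activators of the mitotic programme, fell 2.51-fold and 2.77-fold, and E2f1 fell 2.07-fold. E2f8, a repressor that itself peaks in dividing cells, fell 4.03-fold. Lin37, a MuvB subunit of the DREAM complex, and Cdkn1a, which encodes the cell cycle inhibitor p21, rose 1.26-fold and 1.2-fold. Of the other Lin genes in the list, Lin9 fell 1.49-fold, while Lin52 and Lin54 did not pass. Rbl1 fell 1.99-fold, and its relative Rbl2 did not pass. Of the 3 NF-Y subunit genes, Nfyb fell 1.18-fold, while Nfya (log2 fold change 0.01) and Nfyc (0.11) did not pass.

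Markers of several cell types moved in the same libraries. Their counts of calls stand beside 25.5% of all genes tested called lower and 24.3% called higher. All 7 myocyte markers analysed rose, Tnni3 and Myh6 by 2.1-fold and 1.76-fold, and their summed level was 24198 to 24800 CPM with 915 and 17485 to 18436 CPM with DMSO, so that the labelled cell type was present in both groups. Of 10 fibroblast markers 7 fell (Col3a1 2.42-fold and Thy1 5.54-fold), 2 rose (Dcn 1.4-fold and Pdgfra 1.22-fold) and Postn, with a log2 fold change of 0.04, did not pass. Their summed level was 11234 to 11880 CPM with 915 and 21221 to 22102 CPM with DMSO, and this gap lay in 2 collagen genes, Col1a1 (6289 CPM with 915, 11988 CPM with DMSO on average) and Col3a1 (2826 CPM with 915, 7067 CPM with DMSO). The other 8 fibroblast markers summed to 2389 to 2537 CPM with 915 and 2463 to 2523 CPM with DMSO, so those ranges overlapped. Most of that sum was Postn (1597 CPM with 915, 1606 CPM with DMSO on average). Of these 8, Dcn and Pdgfra rose, and all the rest apart from Postn were called lower. Smooth muscle and pericyte markers fell in 4 of 5 cases and summed to 647 to 698 CPM with 915, against 1661 to 1797 CPM with DMSO. Macrophage markers fell in 4 of 8 cases (118 to 143 CPM with 915, 222 to 240 CPM with DMSO), and endothelial markers in 4 of 7, with 1 higher (56.5 to 57.3 CPM with 915, 70.8 to 74.1 CPM with DMSO). Of 6 Schwann and neural markers 4 fell (43.8 to 49.4 CPM with 915, 60.9 to 64 CPM with DMSO). Summed without their 2 genes of highest mean, the lists other than fibroblast markers kept groups that did not overlap, in the same direction. No marker in the table was at 0 in all libraries. Ttn, Col1a2, Acta2, Myh11 and Pecam1 were not analysed here. The part of these cell types in the kinesin results was not tested.

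**Figure D3:**
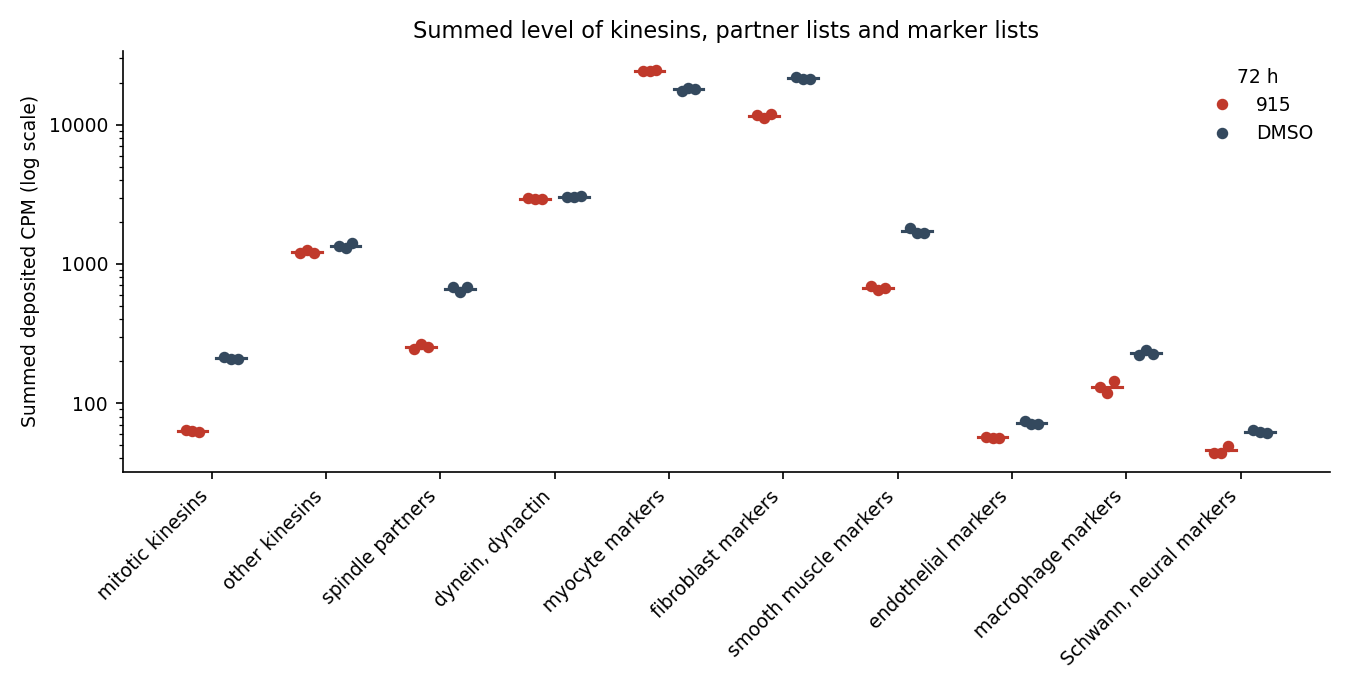
Summed deposited CPM (log axis) of the mitotic kinesins, the other kinesins, 2 partner lists and 6 marker lists, in the 3 libraries with 915 (left of each pair) and the 3 with DMSO (right), with bars at the group means. The mitotic kinesins, at 62.9 CPM with 915 and 210 CPM with DMSO, are further apart than the other kinesins, at 1221 CPM with 915 and 1351 CPM with DMSO.

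Among the cargo-carrying motors, none of the 3 kinesin-1 heavy chain genes passed the test. Kif5b (ENSRNOG00000017466), the kinesin-1 heavy chain of most tissues, had 198, 244 and 209 CPM in the 915 libraries and 223, 181 and 255 CPM in the DMSO libraries. The groups overlapped fully, and the log2 fold change was 0.03 ± 0.0987 (edgeR adjusted p = 0.819). Its neuronal relatives had low counts, Kif5a at 1.65 to 2.69 CPM with 915 and 2.17 to 2.25 CPM with DMSO, and Kif5c at 1.01 to 1.67 CPM with 915 and 1.25 to 1.37 CPM with DMSO, and neither passed.

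The light chains that couple kinesin-1 to cargo did change, in both directions. Klc4 had 59.4, 62.5 and 62 CPM with 915, against 45.7, 48.9 and 48 CPM with DMSO, and rose 1.33-fold (0.42 ± 0.0565, edgeR adjusted p = 3.04e-05). Klc2 had 69.6, 70.4 and 77.5 CPM with 915, against 62.1, 59.3 and 59 CPM with DMSO, and rose 1.25-fold (edgeR adjusted p = 3.73e-04). Klc1 had 117, 122 and 121 CPM with 915, against 142, 137 and 140 CPM with DMSO, and fell 1.12-fold (edgeR adjusted p = 0.00766). None of these 3 genes had overlapping groups. Klc3, at 0.183 to 0.492 CPM with 915 and 0.442 to 0.53 CPM with DMSO, did not pass.

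Adaptors that link kinesins to organelles were higher in 5 of 19 tested cases and lower in 2, close to or under the shares over all genes. Map7, a microtubule protein that recruits kinesin-1, had 7.88 ± 0.314 CPM with 915 and 4.67 ± 0.459 CPM with DMSO (SD, n = 3 each), 1.75-fold higher (edgeR adjusted p = 7.52e-05). Plekhm2, which joins kinesin-1 to lysosomes, and Trak1, which joins it to mitochondria, rose 1.36-fold and 1.32-fold. Trak2, the relative of Trak1, and Rhot1 and Rhot2, which encode the mitochondrial Miro proteins that TRAK adaptors bind, did not pass, with log2 fold changes of -0.05, 0.03 and 0.15.

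Of the 6 kinesin-3 genes, which include the vesicle and endosome motors, 1 rose, 1 fell and 4 did not pass. Over all genes tested, 24.3% were called higher and 25.5% lower. Kif1c (ENSRNOG00000031364), a fast vesicle motor, had 497, 485 and 473 CPM with 915, against 516, 531 and 538 CPM with DMSO. The 915 libraries were all lower, but the log2 fold change of -0.08 ± 0.0444 did not pass (edgeR adjusted p = 0.174). Kif13a, an endosome motor, at 208 to 215 CPM with 915 and 220 to 232 CPM with DMSO, was likewise just below the DMSO libraries and did not pass (-0.04 ± 0.0454, edgeR adjusted p = 0.541). Kif13b had 28.5, 29 and 32.7 CPM with 915, against 38.5, 39.5 and 36.8 CPM with DMSO, and fell 1.23-fold (edgeR adjusted p = 0.00252).

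Kif1a (ENSRNOG00000023993), known as a motor of synaptic vesicle precursors in neurons, was the 1 kinesin called higher. It had 46.8, 43.4 and 48.2 CPM with 915, against 45, 39 and 41.8 CPM with DMSO. The groups overlapped, and the log2 fold change was 0.19 ± 0.0658 (edgeR adjusted p = 0.0297). This call was lost, at 0.13, when library totals were used without a scaling factor, and also without 915 library 1 or 3 or without DMSO library 2 or 3. Kif16b, an early endosome motor, had 27.8, 31.7 and 28.9 CPM with 915, against 27.8, 25.6 and 28 CPM with DMSO, and its change of 0.17 did not pass (edgeR adjusted p = 0.0604). Kif28p was at 0.887 to 1.54 CPM with 915 and 1.34 to 1.59 CPM with DMSO and did not pass.

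Among the kinesin-2 motors, which run along the cilium, Kif3c (ENSRNOG00000011394) was the 1 of 4 genes called. It had 10.1, 11.9 and 9.59 CPM with 915, against 18.2, 14.9 and 15.5 CPM with DMSO, and fell 1.49-fold (-0.58 ± 0.104, edgeR adjusted p = 3.57e-04). Kif3b (31.2 to 32.2 CPM with 915, 32.1 to 34.8 CPM with DMSO) and Kif3a (16.8 to 19.5 CPM with 915, 18.6 to 21.3 CPM with DMSO), which with Kifap3 form the ciliary heterotrimer, did not pass, and neither did Kifap3 itself (-0.08, edgeR adjusted p = 0.241). Kif17 was at 0.367 to 0.471 CPM with 915 and 0.337 to 0.605 CPM with DMSO and did not pass. The intraflagellar transport genes carried by kinesin-2 gave 6 lower and 2 higher calls among 17, where 25.5% of all genes tested were lower and 24.3% higher, around a median of -0.03 on the log2 scale. Ift57 and Wdr35 were among the lower ones (1.39-fold and 1.22-fold), and Ift43 and Ift81 were the higher ones (1.42-fold and 1.28-fold).

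Of the kinesin-4 and kinesin-8 relatives tested, 3 of 5 fell, where 25.5% of all genes tested were called lower. Kif7 (ENSRNOG00000026857), a regulator of Hedgehog signalling at the ciliary tip, had 11.1, 11.9 and 13.7 CPM with 915, against 16.8, 18 and 15.9 CPM with DMSO (-0.42 ± 0.0956, edgeR adjusted p = 0.00229). In GRCr8 its span overlaps that of Ticrr, a DNA replication gene that was 2.35-fold lower, and, with no strand setting stated, reads of the pair may not be separable. Kif27 (ENSRNOG00000019257), a relative of Kif7 needed for motile cilia in the mouse, had 1.13, 0.581 and 0.369 CPM with 915, against 1.65, 1.49 and 1.95 CPM with DMSO. It fell 2.37-fold with a wide error (-1.24 ± 0.342, edgeR adjusted p = 0.00759) on 15 to 77 counts, and its log2 fold change was -1.80 without 915 library 1 and -0.92 without 915 library 3, with the call kept in both. Its span overlaps a related gene, Kif27l1, that was not analysed here. Kif21b, a motor that pauses microtubule growth, had 9.37, 8.47 and 8.54 CPM with 915, against 12.2, 11 and 11.4 CPM with DMSO, and fell 1.27-fold (edgeR adjusted p = 0.0083). Kif21a (14 to 17.7 CPM with 915, 15 to 18.4 CPM with DMSO) and Kif19 (0.471 to 0.703 CPM with 915, 0.709 to 0.819 CPM with DMSO) did not pass.

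Of the kinesin-13 genes outside the mitotic list, 2 fell and 1 could not be tested (25.5% of all genes tested were called lower). Kif2a (ENSRNOG00000014000), a depolymerase of spindle poles and of neurites, had 22.6, 25.2 and 20 CPM with 915, against 32.1, 28.2 and 33.6 CPM with DMSO (-0.42 ± 0.0879, edgeR adjusted p = 0.00109). Kif24, which restrains the growth of cilia, had 3.61, 3.79 and 2.48 CPM with 915, against 5.12, 4.98 and 5.21 CPM with DMSO (-0.59 ± 0.165, edgeR adjusted p = 0.00837). Both genes had all 915 libraries below all DMSO libraries. Kif2b had at most 8 counts and was not tested. Kifc3, a kinesin-14 of epithelial junctions, had 39.9, 39.6 and 40.1 CPM with 915, against 43.2, 48.5 and 42.7 CPM with DMSO, and did not pass (-0.12 ± 0.0647, edgeR adjusted p = 0.142).

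Kif26a (ENSRNOG00000013661) had the largest fall outside the mitotic kinesins. It is an atypical kinesin that binds microtubules without moving along them and, in the mouse, restrains growth factor signalling in enteric neurons. Its level was 12.1, 13.4 and 10.8 CPM in the 915 libraries, against 43.2, 44.6 and 48.2 CPM in the DMSO libraries. The groups were far apart, and the 3.64-fold decrease (-1.86 ± 0.0821, edgeR adjusted p = 3.61e-10) was within the range of the mitotic genes. Its closest relative Kif26b had 18, 19.9 and 20.3 CPM with 915, against 20.9, 18.9 and 21.3 CPM with DMSO, and did not pass (-0.02 ± 0.0785, edgeR adjusted p = 0.851). Kif26a also had no overlapping gene in the reference. In the same libraries, Schwann and neural markers summed to 45.7 ± 3.2 CPM with 915 and 62.4 ± 1.57 CPM with DMSO. Smooth muscle and pericyte markers summed to 673 ± 25.5 CPM with 915 and 1711 ± 75.1 CPM with DMSO. The macrophage and endothelial sums were lower as well. Of the 10 fibroblast markers, 7 were lower and 2 higher. The part of any of these cell types in the fall of Kif26a was not tested.

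Relatives can be compared within each library, where gene length cancels from the difference between groups. The log2 ratio of Kif26a to Kif26b was -0.58, -0.58 and -0.91 with 915, against 1.05, 1.24 and 1.18 with DMSO, a difference of -1.84. The ratio of Kif2c to Kif2a differed by -1.36, from means of -2.17 ± 0.206 with 915 and -0.81 ± 0.222 with DMSO (SD, n = 3 each). Kif3c to Kif3b differed by -0.56 (-1.60 ± 0.165 with 915, -1.04 ± 0.204 with DMSO). Klc4 to Klc1 differed by 0.58 (-0.97 ± 0.00769 with 915, -1.55 ± 0.0776 with DMSO). In each of these 4 pairs the groups did not overlap. The exact two-sided permutation p was 0.1 in each, the smallest that 3 against 3 libraries allow. The pairs were chosen after the values were seen, so this p adds no evidence to the calls of the single genes.

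**Figure D4:**
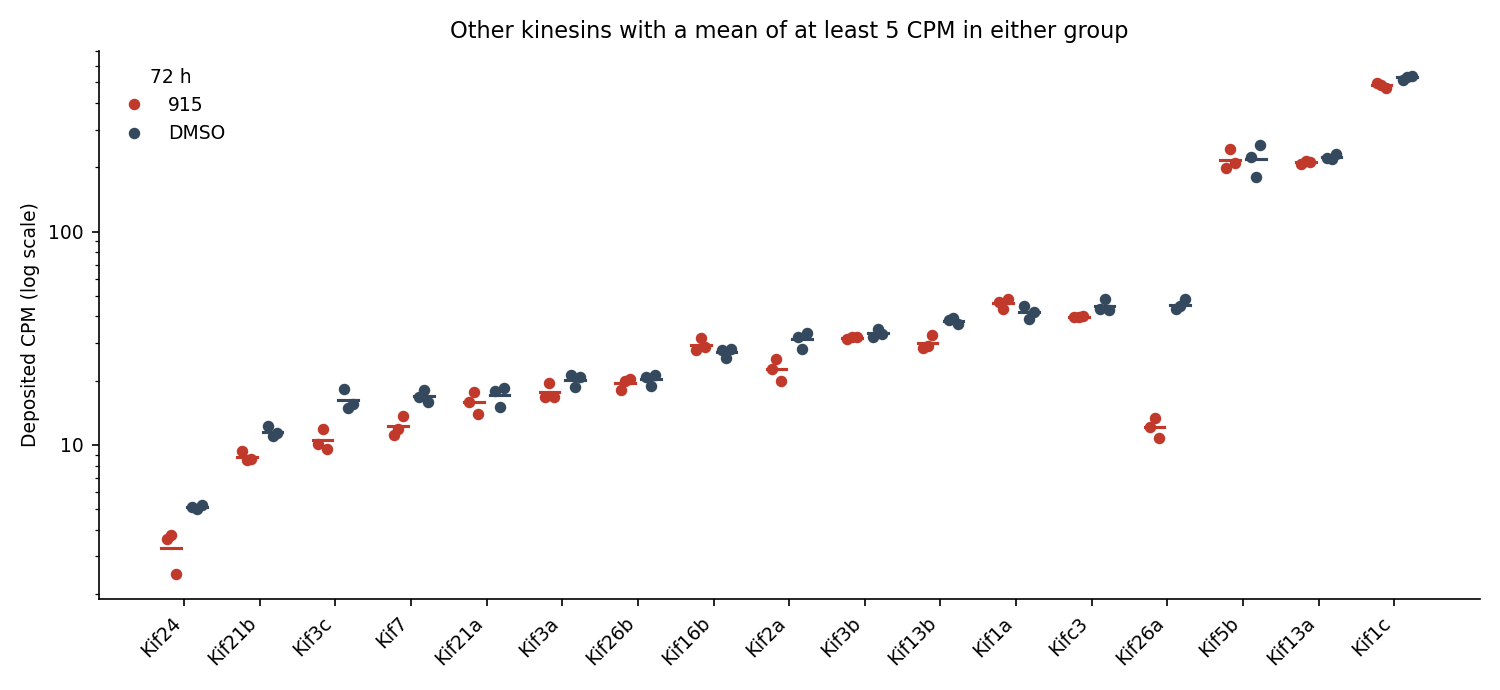
Deposited CPM (log axis) of the 17 other kinesins with a mean of at least 5 CPM in either group, in the 3 libraries with 915 (left of each pair) and the 3 with DMSO (right), with bars at the group means. Kif26a stands apart, at 12.1 CPM on average with 915 and 45.3 CPM with DMSO, and Kif5b, at 217 CPM with 915 and 220 CPM with DMSO, has groups that overlap.

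Kinesins with few counts made up the rest, and Kif6 and Kif9, known from motile cilia and sperm, gave no call. Kif9, whose span overlaps Setd2, was at 1.02, 0.611 and 0.664 CPM with 915, against 0.558, 0.458 and 0.658 CPM with DMSO, and its log2 fold change of 0.51 ± 0.339 did not pass. Kif6, at 0.0523 to 0.418 CPM with 915 and 0.396 to 0.633 CPM with DMSO, did not pass either (-1.02 ± 0.523, edgeR adjusted p = 0.12), but was called lower without 915 library 3, at -1.77. Kif12, with at most 7 counts, was not tested. At these depths 3 counts correspond to 0.0738 to 0.0917 CPM with 915 and 0.0698 to 0.0759 CPM with DMSO, so the lowest values are near what a count of 0 allows, for counting error alone. Kif1bp, the binding protein, had 49.1, 48.5 and 51.8 CPM with 915, against 51, 50 and 46.4 CPM with DMSO, and did not pass (0.07 ± 0.0591, edgeR adjusted p = 0.349).

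Cytoplasmic dynein, the main minus-end motor, was described in the same way. Of 20 dynein and dynactin genes 4 rose and 5 fell, close to the shares over all genes tested (24.3% higher and 25.5% lower). Their median was 0.00 on the log2 scale, and the heavy chain Dync1h1 did not pass (763 CPM with 915, 789 CPM with DMSO on average). The exception in size was the intermediate chain Dync1i1, known mainly from neurons, which had 0.988 ± 0.364 CPM with 915 and 3.64 ± 0.338 CPM with DMSO and fell 3.6-fold (edgeR adjusted p = 2.10e-05). The light chains Dynll1 and Dynlrb1 moved in opposite directions, 1.32-fold lower and 1.39-fold higher.

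**Figure D5:**
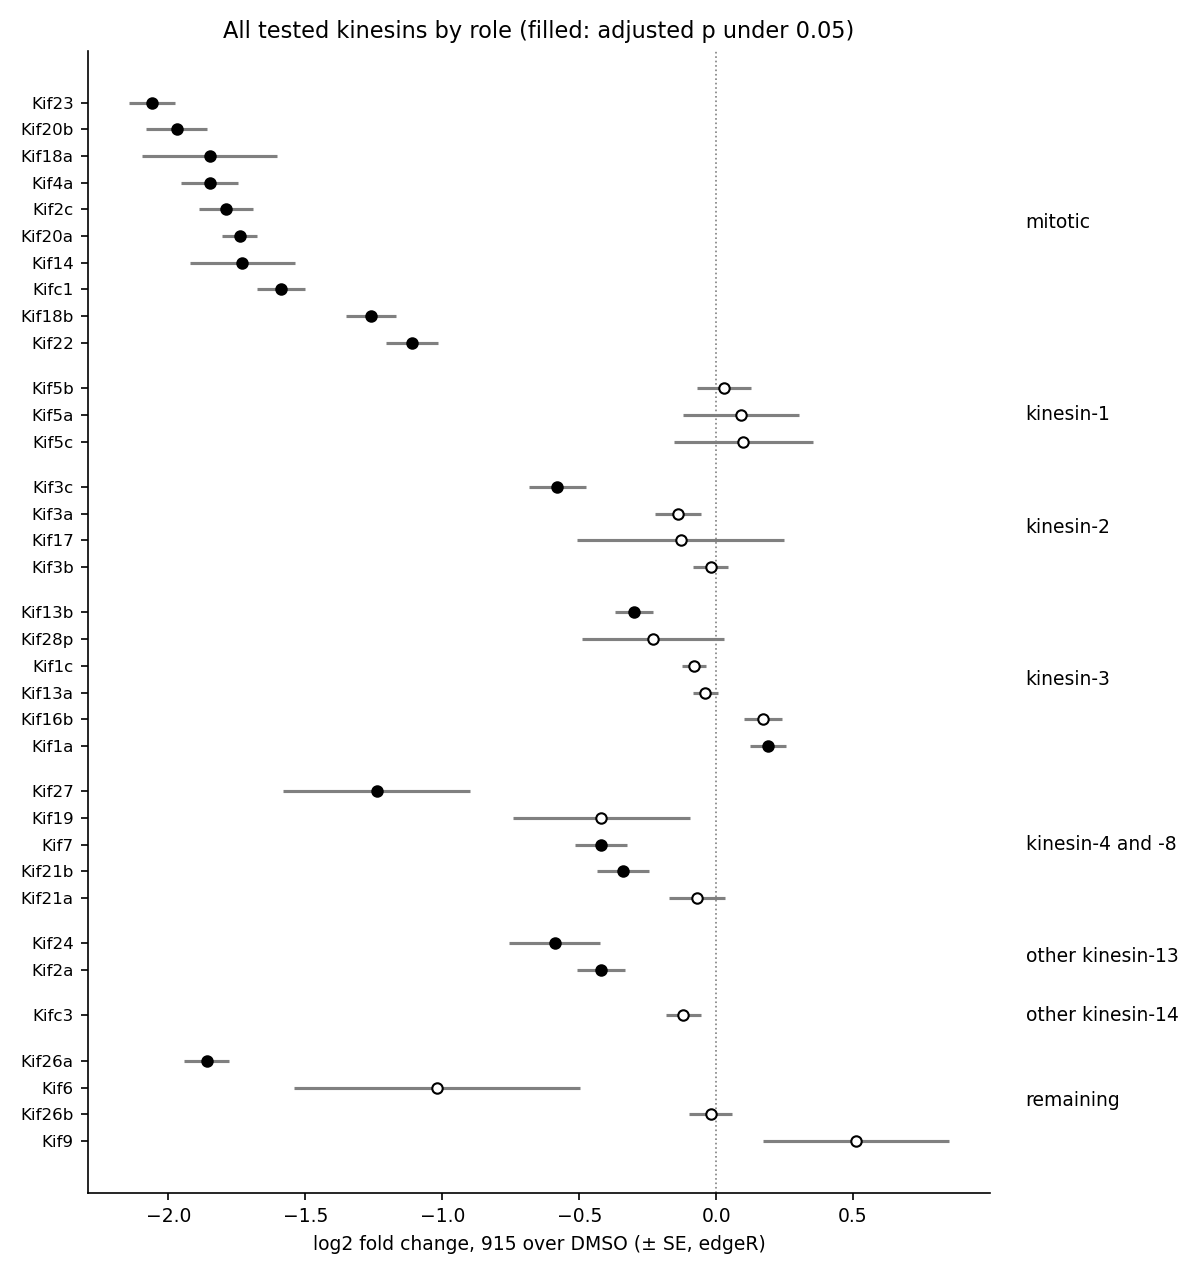
Log2 fold change (915 over DMSO, with SE from edgeR) of the 35 tested kinesins, grouped by role, with filled points for an adjusted p under 0.05. The 10 mitotic kinesins and Kif26a lie at or below -1.11, as does Kif27 with a wider error, kinesin-1 genes lie between 0.03 and 0.10, and Kif1a is the 1 filled point on the higher side.

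The spans of 10 of the 38 genes overlap a protein-coding gene in GRCr8. For the mitotic kinesins among them, the neighbours gave other values: Mettl15 beside Kif18a was 1.53-fold higher, Cdc23 beside Kif20a was 1.25-fold lower, and Pdzd11 beside Kif4a did not pass. Kif4b, a relative of Kif4a, was not analysed here. How reads shared by related genes were counted is not stated, so the Kif4a values are uncertain to that extent.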

How the data were processed

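RNA was measured in 6 libraries of neonatal rat ventricular myocytes, 3 with 915 and 3 with DMSO. STAR (2.5.1a), Subread featureCounts (1.4.6-p5) and the build Rnor_6.0 are listed by the authors, per the submitters' processing notes. For strand setting and multi-mapping reads, the choice is not given in the sources used here. The deposited gene counts held 22641 rows, of which 993 repeated an Ensembl identifier with the same counts and were dropped. The deposited CPM values equal those counts divided by 1 total per library. Without the repeated rows, the count table summed to 35796489, 30639244 and 38078137 in 915 libraries 1 to 3. It summed to 40010826, 38707933 and 36799845 in DMSO libraries 1 to 3. These sums are 93.1% to 93.7% of the totals behind the CPM values, and what makes up the rest was not tested.

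Counts were filtered with filterByExpr (14253 genes kept), scaled by TMM and fitted with edgeR 4.0.16 (quasi-likelihood, two-sided, group alone, R 4.3.3), and p-values were adjusted by Benjamini-Hochberg across the 14253 genes, with calls under 0.05. The SE is the log2 fold change divided by the square root of F. Of the kinesins, 35 of 37 passed the filter, and all mitotic ones had at least 36 counts in every library. The procedure was tested on simulated data. Alternatives were RLE scaling, library totals alone, DESeq2 1.42.0, limma-voom (limma 3.58.1), other filters, a replicate block and each library left out.

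Members, role groups and lists were chosen with earlier results of these data known. Values in every library are given for all mitotic kinesins and, among the others, for those with a mean of at least 5 CPM in either group or a call with an absolute log2 fold change of at least 0.58, or as ranges. Of partner lists, up to 4 members with the smallest adjusted p may be named, with all light chains. Ect2, Cenpe, Racgap1, Nfya, Nfyb, Nfyc, Trak2, Rhot1, Rhot2, Dync1h1, Lin9, Lin37, Lin52, Lin54, Rbl1, Rbl2, Cdkn1a, Dcn, Pdgfra, Postn and the overlapping genes were named outside this rule, after their values were seen. GRCr8 tables were used for overlaps by name and for RefSeq promoters.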

Additional observations from a re-analysis of the deposited data

How the results depend on the processing

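Under all 13 alternatives all 10 mitotic kinesins were called lower, and none of their log2 fold changes left the range of -2.12 to -1.10. Of 364 values under alternatives, for the 28 kinesins given in every library, 349 kept direction and call, 5 lost a call, 3 gained one and 7 changed sign without being called in either fit. The 5 lost calls were all of Kif1a, and the 3 gained were those of Kifc3 and Kif1c with library totals alone and Kif16b without 915 library 1. Outside these 28, Kif6 gained a call without 915 library 3 (-1.77). Kif27 kept its call throughout, between -1.80 and -0.92. With library totals alone, 0 other kinesins were called higher in edgeR (0 also at an unadjusted p under 0.05), and 10 were lower. With 1 library left out, the other kinesins called higher ranged from 0 to 1, those called lower from 8 to 9, the mitotic ones stayed at 10, and all genes called ranged from 6071 to 7047. The count of higher calls was 0 without 915 library 3, DMSO library 2 or DMSO library 3 (1, 0 and 2 at an unadjusted p under 0.05). The sign changes were those of Kif5b (-0.03 with library totals alone, -0.06 without 915 library 2, -0.08 without DMSO library 2), Kif26b (0.03 without 915 library 1, 0.01 without DMSO library 3), Kif21a (0.01 without 915 library 3) and Kif3b (0.02 without DMSO library 2). With 1 library left out, these genes ranged from -0.08 to 0.15 (Kif5b), -0.06 to 0.03 (Kif26b), -0.15 to 0.01 (Kif21a) and -0.05 to 0.02 (Kif3b). The cause was not tested.

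The replicate numbers are shared by the groups, but same-numbered libraries did not deviate together (correlations -0.0339, -0.111 and -0.0897). With deviations taken around means of 3 libraries, these values cannot exclude a pairing, and the labels state none. With the replicate block, 10 mitotic kinesins and 8 others were lower, 1 other was higher and 6193 genes were called, against 7096 without it. Library totals alone moved the median of all genes to -0.0673. Counts were low for Kif6, Kif9, Kif17, Kif19 and Kif27 among the tested kinesins, and Kif2b and Kif12 could not be tested.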
